A study of Homo sapiens and Mus musculus with 9 samples.

Results

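The genes described here encode the factors that start and extend protein synthesis. They are the protein-coding genes of the human RefSeq table whose symbols begin with EIF (56 genes) or EEF (15 genes), together with PABPC1 and PABPC4, which gives 73 of 20056 protein-coding genes. The study mapped RNA sites of PXR, the pregnane X receptor encoded by NR1I2, which responds to drugs and bile acids, by enhanced UV crosslinking and immunoprecipitation (eCLIP). In this method RNA is joined to protein by UV light in the cells, trimmed with RNase I, pulled down with an antibody and sequenced. Per the labels, the human samples were wild-type LS174T cells, a colorectal adenocarcinoma line, as 1 input without antibody and 1 immunoprecipitate (IP) with an antibody to PXR, PXR knockout LS174T cells as 1 IP with the same antibody, and HepG2 cells, a hepatocellular carcinoma line, as 1 input and 2 IPs with an antibody to the HA tag. The labels say neither how the tag was introduced nor whether the knockout line is a single clone. The series also has liver samples of mice with human PXR, whose mouse genes are not analysed here.

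A peak, a stretch of the genome where reads gather on 1 strand, was given to the gene at its summit, the position of most reads. The HepG2 list held 1557 peaks, of which 1085 lay in protein-coding genes. For LS174T, 1 list of 2103 peaks (1702 in protein-coding genes) carries wild-type IP in its name, and 1 list of 46 peaks (23 in protein-coding genes) carries knockout IP, whereas the record ties the former to the wild-type input and the latter to the wild-type IP. The names used here, WT-named and KO-named, follow the names of the lists, and no direction between genotypes or between IP and input is taken from them. Each list stands for 1 group with no values per library, so no replicate spread exists, no difference was tested, and counts are set beside the same count over all protein-coding genes. Among 13 hepatocyte marker genes, 0 had a peak in the HepG2 list, where 4.90% of all protein-coding genes did. With a share this low, 0 of 13 cannot show that hepatocyte genes had fewer peaks than other genes. The HepG2 list held peaks in 3 of 11 colon epithelium genes (CDH17, EPCAM and TFF1) and none in the rest of them. The WT-named list held 7 of those 11 and none of the 13, against 6.44% of protein-coding genes. Of 6 immune, 5 fibroblast and 3 erythroid marker genes 0 had a peak in any human list. The part of this in the results below was not tested.

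Initiation begins when eIF4E binds the cap of an mRNA, the scaffold eIF4G joins it to the helicase eIF4A and to poly(A)-binding protein, and eIF3 with the eIF2-bound initiator tRNA brings in the small ribosomal subunit. Elongation then uses eEF1A to deliver each aminoacyl-tRNA and eEF2 to move the ribosome along. Many mRNAs of this machinery, eEF1A and eEF2 among them, start with a C followed by a run of pyrimidines, the terminal oligopyrimidine (TOP) motif, through which growth signals and the protein LARP1 control how much they are translated. Their mRNAs are abundant in dividing cells, and the peak lists contain no RNA levels that would allow a correction for abundance.

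In the HepG2 list 9 of the 73 genes had a peak (12.3%), where 4.90% of all protein-coding genes did. In the WT-named list 16 had one (21.9%, against 6.44% of protein-coding genes), and in the KO-named list 0 had one, against 0.105%. Peaks in both of the larger lists were held by 6 genes, EEF2, PABPC1, EIF3B, EIF4G1, EIF4G2 and EIF4H (8.22%, against 2.22%). They made up 6 of the 9 HepG2 genes (66.7%, against 45.3% of protein-coding HepG2 genes) and 6 of the 16 WT-named genes (37.5%, against 34.5%). EIF4B, EIF2AK1 and EIF3M had a peak in HepG2 alone. EEF1A1, EEF1G, EEF1E1, EIF1, EIF2S3, EIF3A, EIF4EBP1, EIF4EBP2, EIF5A and PABPC4 had one in the WT-named list alone, and 54 genes had none. The members with a peak had a median span of 22430 bp and those without 18040 bp, against 28830 and 23690 bp for all protein-coding genes, so in both sets the genes with a peak had the longer median span.

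By role, the factors of the cap-binding complex and its scaffolds and helicases had HepG2 peaks in 4 of 12 genes and WT-named peaks in 3 of 12. The 2 poly(A)-binding protein genes had 1 of 2 and 2 of 2, and the eIF3 subunits 2 of 14 in each list. The elongation factors, with EEF1E1 counted among them by its symbol, had 1 of 8 and 4 of 8. Among the inhibitors of initiation and the kinases of eIF2 and eEF2, 1 of 9 and 2 of 9 had a peak. The scanning factors, the eIF2 and eIF2B subunits, and the eIF5A and eIF6 genes had 0 in HepG2, and 1 each of 9, 9 and 4 carried a WT-named peak. The 6 genes of elongation factor methyltransferases had none in any list. EIF4E itself, EIF4A1 and EIF4A2 had no peak in the 3 human lists.

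**Figure D1:**
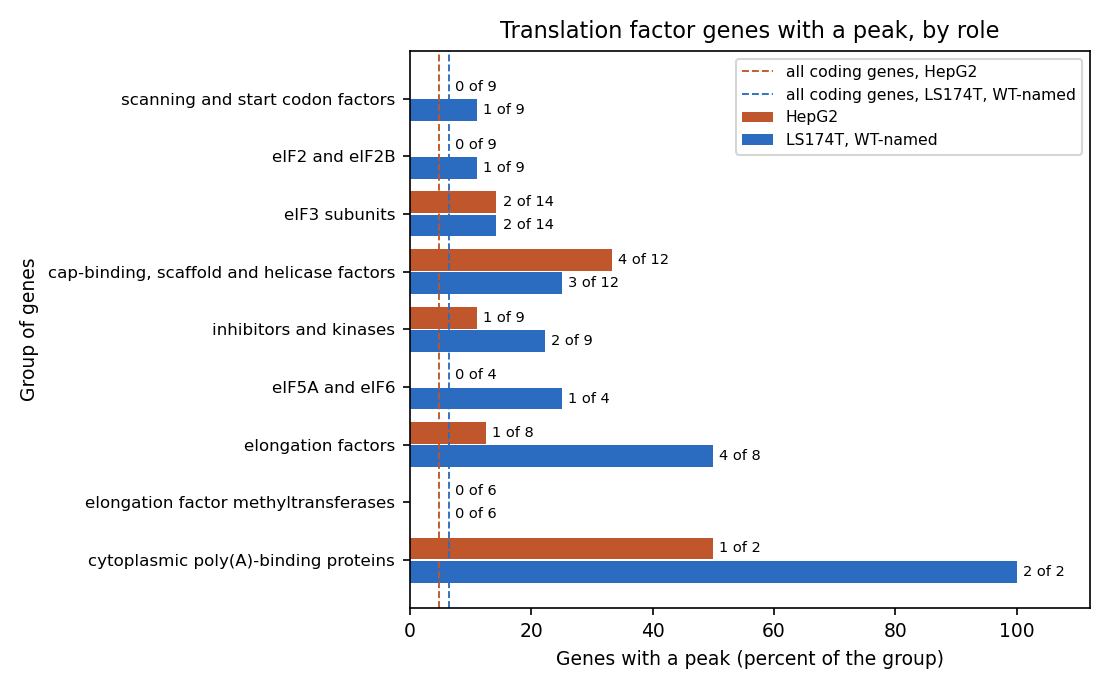
Percent of genes with a peak in each role group, as bars for HepG2 and for the WT-named LS174T list, with the number of genes written beside each bar. Dashed lines mark the share over all protein-coding genes, 4.90% and 6.44%. Every bar above 0 ends beyond its line, which group size fixes, as a single gene with a peak passes both lines in groups of at most 14 genes. The longest bars are those of the 2 poly(A)-binding protein genes (1 of 2 and 2 of 2).

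The start sites of the members are shown to let the TOP motif be read against the peaks. RefSeq (GRCh38.p14) gave start sites for 57 of the 73 genes, and 13 of these 57 (22.8%) had at least 1 annotated start at a C that opens a run of 5 or more C or T bases on the gene's strand, against 6.24% of 15843 protein-coding genes. Each sequence below runs from 10 bases before the annotated start through the first 20 transcribed bases, with the first transcribed base and, where it is a C, the pyrimidine run from it in capitals. The first 5 are the members with a peak and such a run.
EEF1A1 (chr6:73521013-73521042, minus strand): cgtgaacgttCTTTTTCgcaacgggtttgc
EEF2 (chr19:3985444-3985473, minus strand): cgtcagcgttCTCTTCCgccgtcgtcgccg
EIF2S3 (chrX:24054946-24054975, plus strand): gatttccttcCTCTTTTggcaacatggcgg
EIF3M (chr11:32583821-32583850, plus strand): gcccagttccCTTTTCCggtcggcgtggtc
EIF4B (chr12:53006446-53006475, plus strand): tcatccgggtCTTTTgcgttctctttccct
The next 2 are from members with long runs and no peak in any list.
EEF1B2 (chr2:206159885-206159914, plus strand): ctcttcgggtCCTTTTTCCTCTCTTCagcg
EIF3F (chr11:7987327-7987356, plus strand): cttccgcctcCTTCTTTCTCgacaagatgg
The last 4 are from the members whose peaks lay closest to an annotated start, and none of them opens with a pyrimidine run.
EIF1 (chr17:41688875-41688904, plus strand): ccgcccctctGccccagtcactgagccgcc
EIF3B (chr7:2354817-2354846, plus strand): tcgcacgcacAtggctgggctgtagccgtc
EIF4EBP2 (chr10:70404135-70404164, plus strand): gccttcgcccGcttccggtcgtcgtcgtcg
EIF4G2 (chr11:10808907-10808936, minus strand): acgccttagcGccagcagtgagtcggagct

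Of the members with a listed start, 5 of 14 with a peak in either list and 8 of 43 without one had such a run, against 11.6% and 5.68% of protein-coding genes with and without a peak. The motif was thus present in members with and without a peak. In the 5 members that had both a run and a peak, no summit lay within 1000 bp of the annotated start, the nearest being 1297 bp away in EEF2. Among these 5, EIF3M rested on 3 reads on the strand opposite to the gene, and EIF4B on 9 reads. Annotated starts can differ from the starts used in these cells, and a run of pyrimidines in this window is a description of letters.

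EEF2, the translocase of elongation, carried the deepest peaks of the members. Its span, chr19:3976056-3985463 on the minus strand, is 9408 bp long. Reads at a summit were worked out from the deposited fold and p-value of each peak. In the WT-named list EEF2 held 6 peaks, with 108, 64, 82, 80, 81 and 106 reads from its start towards its end. HepG2 held 2, with 41 and 48 reads, at the places of the WT-named peaks of 82 and 106 reads.

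The EEF2 summits lay 1297, 2357, 3207, 5615, 7560 and 8926 bp from the start in the WT-named list and 3165 and 8933 bp in HepG2. Reads were thus spread along the gene, and a summit held 8.17 to 18.1% of the reads of its 10 kb window in the WT-named list and 10.5 and 15.3% in HepG2. The median over all coding-gene peaks was 50% in the WT-named list and 52.6% in HepG2. The deepest EEF2 peak, chr19:3984030-3984295, had a fold enrichment of 8.41 over the caller's local background and a −log10 q of 58.3. The other WT-named EEF2 peaks had folds from 3.94, the lowest of the WT-named member peaks, to 7.66. In HepG2 the EEF2 folds were 6.75 and 4.78. The median fold over all coding-gene peaks was 7.26 in the WT-named list and 7.03 in HepG2. The recovery of reads takes the local background from the peak's own 10 kb window, with no input library used.

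Of the other 7 genes grouped as elongation factors, EEF1A1, EEF1G and EEF1E1 had peaks, in the WT-named list alone. EEF1A1, which encodes the carrier of aminoacyl-tRNA and is among the most abundant mRNAs of most cells, held 1 peak of 15 reads at chr6:73519191-73519392, 1815 bp from its start. EEF1A1 has a paralog, EEF1A2, and many pseudogene copies, none of which held a peak, and how reads that match several copies were placed is not given in the sources used here. EEF1G, a subunit of the complex that recharges eEF1A, held 14 reads at chr11:62559583-62559799, 59 bp from the end of its span, and 12 reads 1369 bp from its start.

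EEF1E1 encodes a scaffold protein of the aminoacyl-tRNA synthetase complex. Its peak at chr6:8086281-8086535 held 55 of the 59 reads of its window (93.2%), with a fold of 25.7, the highest among member peaks. The summit lay 16145 bp from the start of a 29189 bp span and also inside the lncRNA gene EEF1E1-BLOC1S5 on the same strand, and reads of these 2 genes cannot be told apart. HepG2 had no peak there. Shallower member peaks reached such shares too, with 14 of 15 window reads (93.3%) at the EEF1G site near its end and all reads in EIF2AK1 and EIF3M.

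PABPC1, the cytoplasmic poly(A)-binding protein that joins the mRNA tail to eIF4G, was the second deepest member. Its widest peak spanned chr8:100721262-100721975 in HepG2 with 33 reads and chr8:100721267-100721958 in the WT-named list with 56 reads. The edges of these peaks lay 5 bp apart on the lower side and 17 bp apart on the upper side. Their summits lay 496 and 385 bp from the upper end of the 19173 bp span.

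A further PABPC1 site held 14 reads in HepG2 and 16 WT-named reads, with summits 6 bp apart, 3698 and 3704 bp from the lower end. The WT-named list added a site of 29 reads at chr8:100709393-100709724. PABPC4, a related poly(A)-binding protein, held 11 reads in the WT-named list, 751 bp from the upper end of its span.

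**Figure D2:**
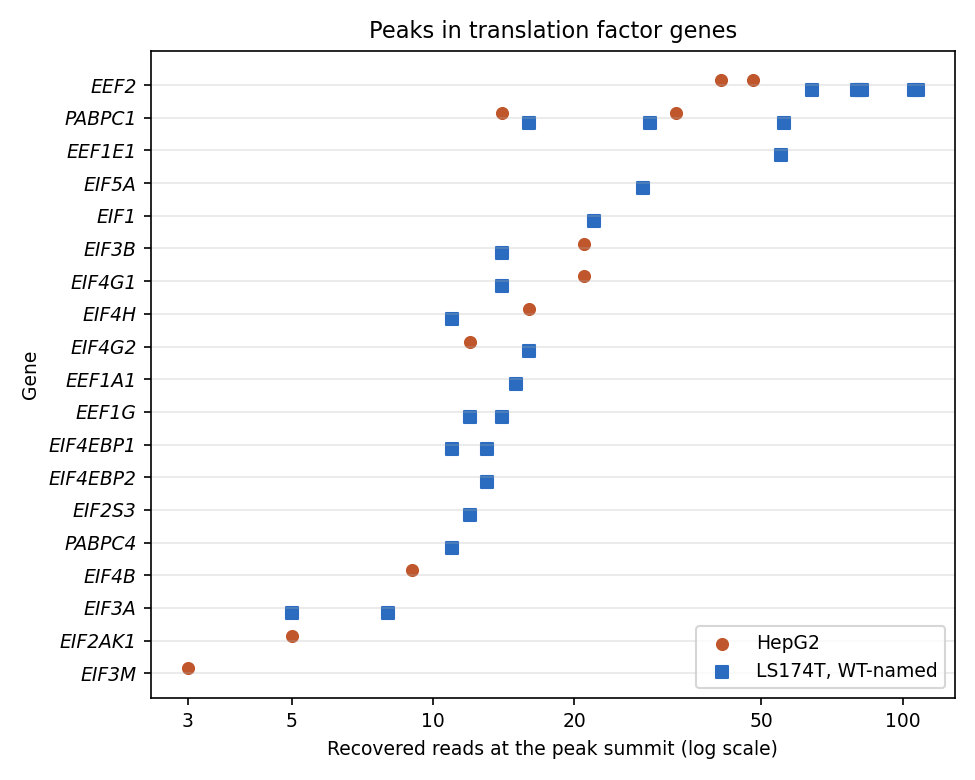
Recovered reads at the summit of each peak (horizontal, log scale) for each gene with a peak, circles for HepG2 and squares for the WT-named LS174T list. EEF2 reaches 48 and 108 reads, PABPC1 33 and 56, and EIF3M, EIF2AK1 and EIF3A lie lowest, with 3, 5 and at most 8 reads.

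Among the cap-complex genes, the scaffold gene EIF4G1 held 21 reads in HepG2 at chr3:184334911-184335430 and 14 in the WT-named list at chr3:184334845-184335358. These peaks were 520 and 514 bp wide, and their summits lay 113 and 264 bp from the end of the gene. EIF4G2, which encodes a scaffold that lacks the eIF4E-binding part, had 12 and 16 reads, HepG2 first, at summits 201 and 179 bp from its upstream annotated start. EIF4H, which encodes a stimulator of the helicase eIF4A, had 16 and 11 reads, 841 and 898 bp from its end. EIF4B, which encodes another such stimulator, had 9 reads in HepG2, 1412 bp from its end, but none in the WT-named list. The peaks of both lists overlapped in EIF4G2, EIF4H and EIF4G1, with summits 22, 57 and 151 bp apart, near the start in EIF4G2 and near the end in the others.

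Of the eIF3 subunits, which form the largest initiation factor, EIF3B held 21 reads in HepG2 and 14 WT-named reads. The peaks, chr7:2354874-2355424 and chr7:2354956-2355362, had summits 212 and 301 bp from the annotated start shown above. EIF3A held 8 and 5 reads at separate places in the WT-named list. The EIF3M peak of HepG2 rested on 3 reads, which were all the reads of its window, had a −log10 q of 2.15 and lay on the strand opposite to the gene. It was the shallowest peak of the members.

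EIF1, which guards the choice of start codon, held 22 reads in the WT-named list, 199 bp from its start. EIF2S3, the subunit of eIF2 that binds the initiator tRNA, had 12 reads 1530 bp from its end. EIF5A, whose product helps ribosomes through hard stretches and carries the modified residue hypusine, had 28 reads in a peak of 565 bp, 439 bp from its end. These 3 genes had no peak in HepG2.

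The inhibitors EIF4EBP1 and EIF4EBP2 encode proteins that hold eIF4E away from eIF4G until growth signals release it. Both had peaks in the WT-named list. EIF4EBP1 held 13 reads 178 bp from the lower end of its span and 11 reads 223 bp from the upper end. EIF4EBP2 held 13 reads 197 bp from its start. EIF2AK1, the kinase that halts initiation when heme is scarce, had 5 reads in HepG2, all the reads of its window, and no WT-named peak.

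**Figure D3:**
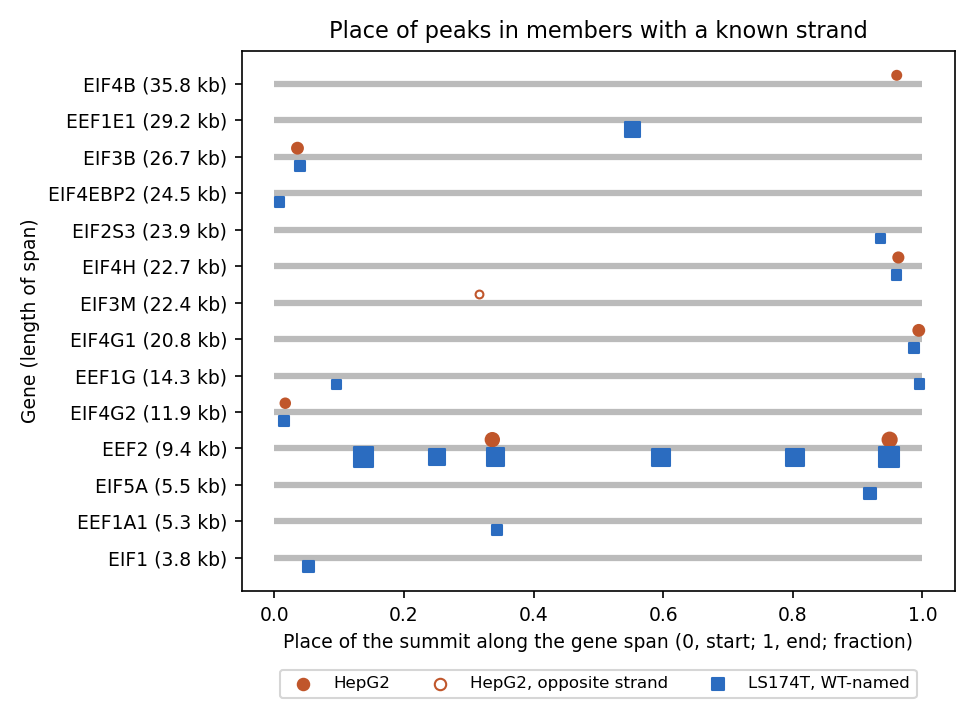
Place of each summit along the span of its gene, from start (0) to end (1), for the 14 members with a peak and a known strand, with marker size growing with reads. In EEF2 the squares of the WT-named list run along the gene, EIF3B, EIF4G2, EIF4EBP2 and EIF1 are marked at the start, EIF4G1, EIF4H and EIF4B near the end, and the open circle is the opposite-strand peak in EIF3M.

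Across the members, 7 of 11 HepG2 summits (63.6%) and 13 of 26 WT-named summits (50%) lay within 1000 bp of either end of the gene span, against 61.4% and 62.4% of all coding-gene peaks. Where the strand is known, 2 of 8 HepG2 summits and 3 of 18 WT-named summits lay within 1000 bp of the start of the gene span (50.5% and 44.8% of all coding-gene peaks), and 3 of 8 and 5 of 18 within 1000 bp of its end (15.9% and 20.3%). The WT-named EIF3B summit, 301 bp from the annotated start, is not among the 3, as the span begins further upstream, 1042 bp from the summit. Of the 18 WT-named peaks 6 are in EEF2, so these are not 18 separate genes. The peaks lay on the strand of the gene in 7 of 8 cases in HepG2 (86.5% of all coding-gene peaks) and in 18 of 18 in the WT-named list (94.9%). Member peaks were wider than 400 bp in 3 of 11 and 5 of 26 cases (7.28% and 8.99%). All the reads of the window stood at the summit in 2 of 11 and 0 of 26 (18.1% and 9.28%). Of the genes with a peak, 2 of 9 and 5 of 16 held 2 or more (8.55% and 21.4%). The member peaks had a median of 16 (HepG2) and 15.5 (WT-named) reads, against 10 and 11 over all coding-gene peaks. The 95% interval of the median, by rank, ran from 5 to 41 in HepG2 and from 13 to 55 in the WT-named list. The HepG2 interval includes 10. Both intervals treat peaks of the same gene as separate, among them 2 EEF2 and 2 PABPC1 peaks in HepG2 and 6 and 3 in the WT-named list. They are therefore a description and no test against the other coding-gene peaks. With the deepest peak of each gene the medians were 16 and 14.

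Of the 11 HepG2 member peaks, 8 overlapped a WT-named peak (72.7%), against 39.4% of HepG2 coding-gene peaks. The 8 held 12 to 48 reads, and the exceptions, in EIF4B, EIF2AK1 and EIF3M, held 9, 5 and 3. Over all coding genes too, overlap was less frequent at low depth, with 26.3% for HepG2 peaks under 10 reads and 50.5% for those of at least 10. Turned around, 8 of 26 WT-named member peaks (30.8%) overlapped a HepG2 peak, against 25.3%. With at least 10 reads these were 8 of 24, against 29.9%, so the WT-named members met a HepG2 peak at a share near that of other coding genes. At 4 of the 8 sites the summits lay within 50 bp of each other, and the median distance was 49.5 bp, against 24 bp over the 427 shared coding-gene sites.

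Reads at the shared sites are given gene by gene, and no difference between genes was tested. The ratio of WT-named over HepG2 reads at the summit was 2.21 (95% counting interval 1.56 to 3.17) and 2.00 (1.36 to 2.98) at the EEF2 sites, and 1.70 (1.08 to 2.69) at the wide PABPC1 site. It was 1.33 (0.592 to 3.09) in EIF4G2 and 1.14 (0.523 to 2.53) at the other PABPC1 site. It was below 1 in EIF4H, at 0.688 (0.289 to 1.58), and 0.667 (0.314 to 1.38) in both EIF3B and EIF4G1. The median over the 427 shared coding-gene sites was 1.07 (quartiles 0.714 and 1.73). The EEF2 ratios lay above these quartiles, those of EIF4H, EIF3B and EIF4G1 below, and those of EIF4G2 and PABPC1 between them. At 5 of the 8 sites the interval includes 1, and at those the summit reads cannot be told apart at this depth. Reads were not scaled for library depth, which the lists do not give, so a ratio of 1 does not stand for equal binding. Reads of the whole 10 kb window around each site gave ratios of 2.07 and 1.98 in EEF2, 1.70 in EIF4G2, 1.11 at the wide PABPC1 site and 1.08 at the other. The window ratios were 0.608 in EIF4G1, 0.5 in EIF4H (46 reads in HepG2 and 23 WT-named) and 0.440 in EIF3B (50 and 22). At the wide PABPC1 site the excess of WT-named reads was thus smaller in the window (131 against 118) than at the summit, and in EIF3B and EIF4H the window stood further below 1. The intervals are exact (Clopper-Pearson) and cover counting error only, and the ratios compare 2 lists of unlike cell line. By the sample labels, the IPs of these lines also differed in antibody. The record, however, ties the WT-named list to the wild-type input, which had no antibody.

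**Figure D4:**
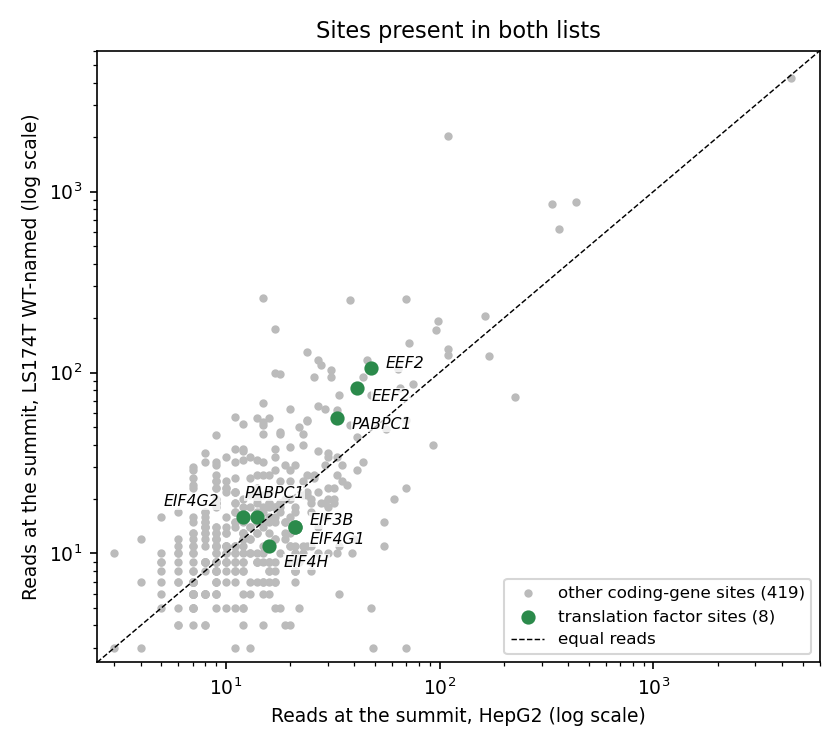
Reads at the summit in HepG2 (horizontal) and in the WT-named LS174T list (vertical), both on log scales, for the 8 shared sites in translation factor genes and 419 other shared coding-gene sites, with a dashed line at equal reads. The EEF2 sites and the wide PABPC1 site lie above the line and the EIF3B, EIF4G1 and EIF4H sites below it, where EIF3B and EIF4G1 share 1 point.

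The KO-named list held no member peak. Of the WT-named member peaks with at least 50 reads, 6 in EEF2 and 1 each in EEF1E1 and PABPC1, 0 of 8 overlapped a KO-named peak, against 14 of 84 such peaks in all coding genes (16.7%). At these shares, 0 of 73 genes and 0 of 8 peaks, most of them in 1 gene, cannot show that members differ from other coding genes in the KO-named list. The lowest deposited −log10 p was 7.59 in the KO-named list, 5.10 in the WT-named list and 5.27 in HepG2, and a gene without a peak has no level here.

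Of 62 further translation genes, 6 had a peak in HepG2 (9.68%), 12 in the WT-named list (19.4%) and 1 in the KO-named list (1.61%), against 4.90%, 6.44% and 0.105% of all protein-coding genes. LARP1, which binds TOP mRNAs, held 11 reads in HepG2 and 22 at the overlapping WT-named site, with a further 11 reads elsewhere in the WT-named list. GSPT1, a termination factor, held 25 and 11 reads, PABPN1, the nuclear poly(A)-binding protein, 16 and 19, and BTF3, a subunit of the nascent polypeptide-associated complex, 13 and 18, HepG2 first.

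RACK1, a protein of the small ribosomal subunit, held 18 reads in HepG2 and 46, 27 and 26 in the WT-named list. PDCD4, an inhibitor of eIF4A, held 9 reads in HepG2 alone. TPT1, an abundant TOP mRNA, held 16 reads in the KO-named list and 26, 26, 29 and 42 in the WT-named list. DDX3X, a helicase, MKNK2, a kinase of eIF4E, and the synthetase genes GARS1, IARS1, SARS1 and TARS1 had peaks of 5 to 19 reads in the WT-named list alone. The synthetases thus stood at 0 of 20 in HepG2 (4.90% of protein-coding genes) and 4 of 20 in the WT-named list (6.44%). The mitochondrial translation factor genes stood at 0 of 8 in each of the 3 lists, against the same shares and 0.105% in the KO-named list.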

How the data were processed

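Peak lists made by the authors from eCLIP libraries were the starting point. The submitters' processing notes name cutadapt, BWA and MACS2, and the builds hg38 and mm10. Versions, settings and pooling of the 2 HepG2 IPs are not given in the sources used here. Each deposited peak carries the authors' score, fold enrichment (ratio to local background), −log10 p and −log10 q. Column order was taken as narrowPeak, and strands are those of its strand column.

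Reads n at a summit were computed from fold = (n + 1) / (λ + 1) and the Poisson chance of exceeding n, with λ a multiple of 0.02, the step of reads extended by 200 bp in a 10000 bp window. This gave 1 solution for 3697 of 3706 peaks (99.8%), all 37 member peaks included, and was tested on simulated peaks. The simulated peaks were made with the same formula and step, so they check the computation and not which background the caller used. Without molecular identifiers reads may include PCR copies.

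Summits were assigned with the GRCh38.p14 RefSeq table without strand, a small RNA gene first, then a pseudogene, then the shortest coding or lncRNA gene. The table holds no exons. Gene strand came from the RefSeq start table, which listed 57 of 73 members. Overlap meant at least 1 bp on the same strand. All deposited peaks were used. Every member with a peak is named, and of other translation genes those with a peak. The members and lists were chosen with earlier results of these data known. Python 3.11.15, scipy 1.17.1 and pandas 2.3.3 were used. Liver was not analysed here.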

Additional observations from a re-analysis of the deposited data

How the results depend on the processing

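Over 31 recomputations 30 counts and medians stayed within 1.5 times the reported value or, for medians, within its interval. Some of these outcomes were fixed, as stricter rules on q, reads or strand could only leave the KO-named count at 0. The HepG2 count of members, which fell from 9 to 6 under the rules on reads and on strand, stood at the 1.5 limit. The exception was the count of HepG2 member peaks that meet a WT-named peak, which was 8 by overlap of 1 bp or of at least 50% of both peaks, and 4 where summits had to lie within 50 bp, a stricter rule by construction. Peaks of at least 10 reads left 6 members in HepG2, without EIF2AK1, EIF3M and EIF4B, and 15 in the WT-named list, without EIF3A. Peaks on the strand of the gene left 6 and 12: EIF3M was lost for its opposite-strand peak, and EIF2AK1, PABPC1, EIF3A, EIF4EBP1 and PABPC4 because no strand is listed for them. Taking any summit in a member span added EIF1AX to the WT-named list (17 genes). No paired analysis was possible because each list holds 1 set of peaks with no values per replicate. Depth limits what the lists show: a member without a peak may have reads below the caller's cutoff.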

Other observations

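Translation factor genes host small RNAs in their introns, and 27 small RNA genes lie inside the spans of 18 members. One of them, SCARNA9L, a small Cajal body RNA gene inside EIF1AX, held a peak, with 35 of the 37 reads of its window in the WT-named list. The 6 small RNA genes inside EIF4A2 and the 3 inside EIF4A1 had none in the 3 human lists. Among 178 pseudogenes named after a member, 4 held a peak: EIF4HP1 (9 reads) and EIF1P3 (5 reads) in HepG2, and EIF4A2P4 and EIF4E2P2 (5 reads each) in the WT-named list. How the authors treated reads that match several such copies is not given in the sources used here. Shares over all small RNA genes and all pseudogenes were not computed, so these counts are not read as high or low.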
